A study of Mus musculus with 6 samples.

Results

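Fgd5, Ctnnal1, Pdzk1ip1, Sult1a1 and Socs2 are genes enriched in long-term hematopoietic stem cells that encode neither a sorting marker nor a transcription factor. They were taken from the deposited table by gene symbol, and all 5 were found among its 11108 listed genes. RNA-seq was done on sorted mouse stem cells of 2 genotypes, Mcph1-/- (3 libraries) and wild type (WT, 3 libraries). The cells came from bone marrow without treatment and were gated as lineage-negative, Sca-1+, c-kit+, CD34- and CD150+. Smart-seq2, which amplifies full-length cDNA from little RNA, was run on 200 cells per library. The labels give no age and do not say which part of Mcph1 is missing. Whether replicates are separate mice is not stated, so a p-value here covers the spread among 3 libraries a genotype, part of which may be technical.

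Long-term hematopoietic stem cells are mostly quiescent and sustain all blood lineages. Besides transcription factors and surface antigens, they carry a set of cytoplasmic and membrane proteins that are lost early in differentiation, and several of these genes have served as the basis of mouse reporter strains that label stem cells. Fgd5 is a guanine nucleotide exchange factor of the FGD family, which activates the small GTPase CDC42, and is also known from endothelial cells. Ctnnal1 encodes alpha-catulin, a protein related to alpha-catenin and vinculin. Pdzk1ip1, also called MAP17, is a small membrane protein that binds the scaffold PDZK1. Sult1a1 is a cytosolic sulfotransferase that adds sulfate to phenols, and Socs2 is a suppressor of cytokine signalling that is induced by STAT5 and recruits a ubiquitin ligase.

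The genes lie on 4 chromosomes of mm10 and are all protein-coding. Fgd5 (ENSMUSG00000034037) occupies chromosome 6, 91978878 to 92076004 (plus strand), Ctnnal1 (ENSMUSG00000038816) chromosome 4, 56810935 to 56865188 (minus strand), and Pdzk1ip1 (ENSMUSG00000028716) the same chromosome, 115088708 to 115093899 (plus strand). Sult1a1 (ENSMUSG00000030711) occupies chromosome 7, 126672865 to 126676432 (minus strand), and Socs2 (ENSMUSG00000020027) chromosome 10, 95385362 to 95417180 (minus strand). Of the exonic bases of Sult1a1, 61 of 1507 (4.05%) are shared with Sgf29 on the opposite strand. Smart-seq2 does not mark strand and no strand setting is given in the sources used here, so reads in these bases cannot be told apart. No exon of the other 4 genes overlaps another annotated gene.

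Promoter windows are shown because the members with high values and those with low values differ there in CG content, which with 4 genes is a description only. Each is the 250 bases before the start site in RefSeq (GRCm38.p6, the assembly of mm10), written 5′ to 3′ on the strand of the gene, for the 4 genes that RefSeq's table of promoters matched. Capitals mark E-boxes, the letters CAGCTG or CACGTG.
Pdzk1ip1, chr4:115088458-115088707, plus strand: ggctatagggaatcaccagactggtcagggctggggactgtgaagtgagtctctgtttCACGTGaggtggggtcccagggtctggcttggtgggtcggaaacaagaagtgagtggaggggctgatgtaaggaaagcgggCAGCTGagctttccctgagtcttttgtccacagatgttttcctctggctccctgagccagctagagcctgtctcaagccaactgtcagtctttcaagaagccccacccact
Sult1a1, chr7:126676419-126676668, minus strand: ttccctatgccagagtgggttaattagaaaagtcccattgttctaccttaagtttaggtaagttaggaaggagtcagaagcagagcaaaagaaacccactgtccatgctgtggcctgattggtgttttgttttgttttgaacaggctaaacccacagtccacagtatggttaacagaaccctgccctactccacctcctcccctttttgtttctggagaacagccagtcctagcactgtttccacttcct
Ctnnal1, chr4:56865212-56865461, minus strand: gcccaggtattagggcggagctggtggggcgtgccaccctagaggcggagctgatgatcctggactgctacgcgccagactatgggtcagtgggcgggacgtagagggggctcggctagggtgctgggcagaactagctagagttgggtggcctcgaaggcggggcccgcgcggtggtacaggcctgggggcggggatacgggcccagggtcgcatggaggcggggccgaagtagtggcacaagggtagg
Fgd5, chr6:91978715-91978964, plus strand: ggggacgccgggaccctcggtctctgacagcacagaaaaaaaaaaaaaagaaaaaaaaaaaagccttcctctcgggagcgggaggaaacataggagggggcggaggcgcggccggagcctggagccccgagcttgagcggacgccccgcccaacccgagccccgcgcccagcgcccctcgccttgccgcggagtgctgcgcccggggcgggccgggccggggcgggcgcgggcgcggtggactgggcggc

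The windows of Fgd5 and Ctnnal1, which had low values here, held 31 and 18 CG dinucleotides and had a GC content of 71.6% and 68.4%. The windows of Pdzk1ip1 and Sult1a1, which had high values, held 3 and 0 CG dinucleotides and had a GC content of 55.6% and 45.6%. The median over 27025 mouse promoters was 6 CG dinucleotides and a GC content of 52.0%. Searched on both strands, the E-boxes CACGTG and CAGCTG each occurred once in the Pdzk1ip1 window, at 192 and 111 bases before the start site, and in none of the other 3. They occurred in 6.05% and 12.8% of all promoters. The STAT-type letters TTCNNNGAA were in none of the 4 windows and in 7.18% of all promoters. Likewise absent from the 4 windows were the GATA-type letters AGATAA, found in 10.3% of all promoters. The ETS-type letters CCGGAAG, found in 7.05% of all promoters, had no match either. The same held for the RUNX-type letters TGTGGT, found in 14.2% of all promoters.

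The libraries held 8102605 to 10455908 reads assigned to listed genes, with reads for 10516 to 10777 genes in Mcph1-/- and 10209 to 10335 in WT. The targeted gene Mcph1 was read in every library, at a normalised read count of 428, 37.7 and 234 in Mcph1-/- and 160, 341 and 34.4 in WT, and since the deleted part is not given, these counts do not check the genotype. Of the 6 markers fixed for the sorted cells, Kit, Ly6a, Procr, Mecom and Hlf were read in every library, but Slamf1, which encodes CD150, had 65.7, 395 and 0.893 in Mcph1-/- and 0, 224 and 497 in WT. Their summed level was 6358 to 6942 in Mcph1-/- and 5989 to 8987 in WT. For 4 lists of markers of other cells or states the summed levels did not overlap between genotypes. All 13 cycling markers had values and log2 fold changes above 0, against 5835 of all 10846 genes, and none of the 13 was called. In 7 of them every Mcph1-/- library was above every WT library, against 803 of all 10846 genes. The sum of the 13 was 9551 to 13886 in Mcph1-/- and 4258 to 5630 in WT. For 7 of 11 neutrophil markers with values the sum was 3287 to 18724 in Mcph1-/- and 58564 to 67847 in WT. Of the 7, S100a8, S100a9, Ngp and Camp had every Mcph1-/- library below every WT library, while Elane, Mpo and Prtn3 overlapped. Elane and Mpo stood at 8095 and 4856 in Mcph1-/- replicate 3, the library with the sum of 18724. For 3 of 8 monocyte and macrophage markers the sum was 4735 to 5140 in Mcph1-/- and 7867 to 12771 in WT, most of it from Lyz2. For 10 of 12 erythroid markers it was 51351 to 57249 in Mcph1-/- and 20045 to 41481 in WT, but without Car1 it was 25403 to 27635 in Mcph1-/- and 18417 to 36915 in WT, which overlapped. The 36915 was in WT replicate 3, where Hba-a1 stood at 8516. Of the 10, Car1, Klf1 and Blvrb had every Mcph1-/- library above every WT library, which held for 803 of all 10846 genes. The globin genes Hba-a1, Hba-a2 and Hbb-bs went the other way, with every Mcph1-/- library below every WT library, which held for 6.8% of all genes. The rest, among them the globin gene Hbb-bt, overlapped. The part of other cell types in the values of the 5 genes was not tested. In bulk libraries, fewer cells of a type and less RNA per cell cannot be told apart.

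Pdzk1ip1 and Sult1a1 were abundant transcripts of these cells, and Socs2, Ctnnal1 and Fgd5 were not. Values are given as normalised read counts, the reads of a gene divided by 1 size factor per library, and for levels between genes also per kilobase of annotated exon. On the per-kilobase scale Pdzk1ip1 averaged 2522 ± 250 in Mcph1-/- and 3562 ± 523 in WT, and Sult1a1 averaged 1152 ± 278 in Mcph1-/- and 1650 ± 482 in WT (SD, n = 3). They stood above 97.4% and 94.1% of all genes with a length. Socs2 averaged 69.9 ± 30.9 per kilobase in Mcph1-/- and 58.9 ± 34.9 in WT, near the median of all genes, which was 67.3 in Mcph1-/- and 70.2 in WT. Ctnnal1 (21.9 ± 9.08 in Mcph1-/- and 37.1 ± 16.6 in WT) and Fgd5 (18.8 ± 12.9 in Mcph1-/- and 17.0 ± 22.0 in WT) were lower. Pdzk1ip1 was first and Sult1a1 second per kilobase in all 6 libraries. Socs2 came next in 5 libraries and last in WT replicate 1. Ctnnal1 and Fgd5 changed places between libraries and did not differ beyond their spread. The exonic length joins all annotated isoforms, so the per-kilobase level of a gene with many isoforms, such as Socs2 with 14, may be understated.

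None of the 5 genes passed the test for a difference between genotypes. Limma was run on log2(value + 1) over the 10846 genes whose mean value reached 10, all 5 included, and a gene was called at an adjusted p under 0.05. It called 0 of the 5, against 4 of all genes (0.0369%, with 0.00922% called higher and 0.0277% called lower). Those 4 were S100a8, Ngp and S100a9, neutrophil genes that fell in Mcph1-/-, and the erythroid enzyme gene Car1, which rose. DESeq2 called 120 genes higher and 118 lower. The call of Car1 was lost by edgeR (adjusted p = 0.13) and when any 1 library other than WT replicate 3 was left out, and that of S100a8 by limma-voom (adjusted p = 0.307). At an unadjusted p under 0.05, limma, limma-voom, edgeR and DESeq2 each counted 1 of the 5 genes, Pdzk1ip1, and 7.71% of all genes met this by limma. After adjustment limma-voom, edgeR and DESeq2 also called 0 of the 5.

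**Figure D1:**
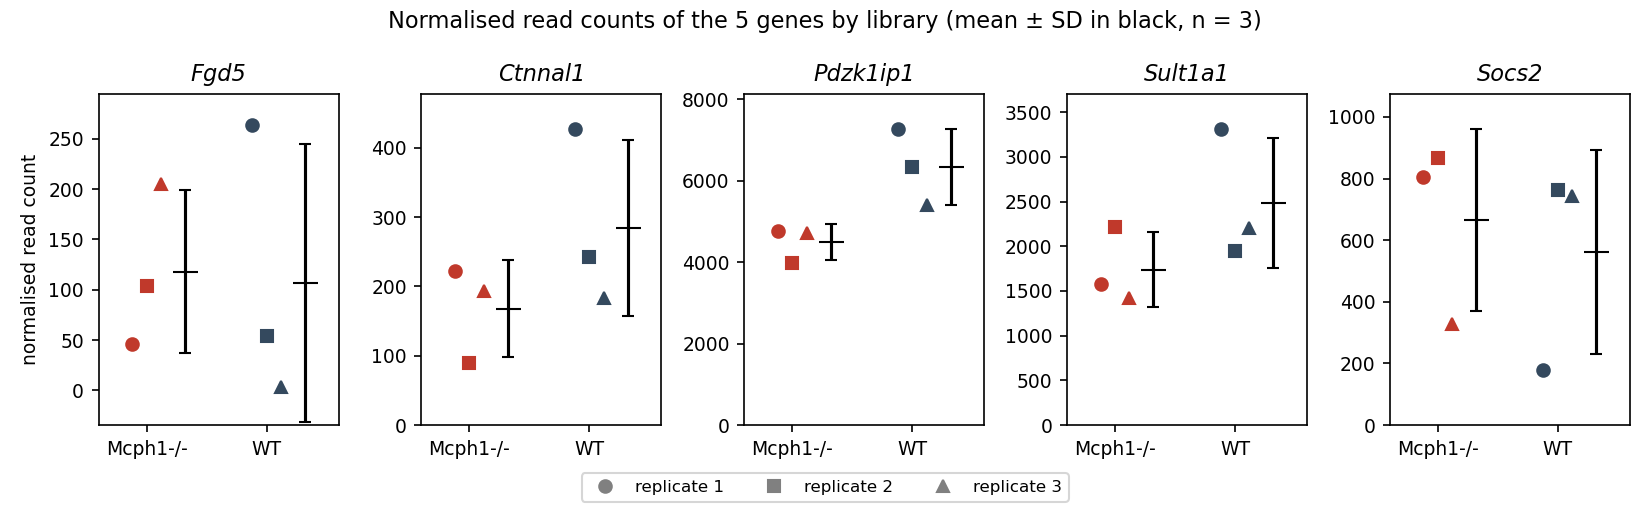
Normalised read count (vertical axis, scales differ between panels) of each gene in the 3 Mcph1-/- libraries (red) and the 3 WT libraries (blue), with the mean ± SD of each genotype in black. Pdzk1ip1 is the gene whose genotypes do not overlap, with Mcph1-/- libraries between 3973 and 4771 and WT libraries between 5408 and 7268.

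Pdzk1ip1 had 4771, 3973 and 4710 normalised read counts in Mcph1-/- replicates 1 to 3, against 7268, 6327 and 5408 in WT replicates 1 to 3. Every Mcph1-/- library was below every WT library. Among all tested genes, 6.8% had all Mcph1-/- libraries below all WT libraries, so a gene apart in this way was not rare. Its mean in Mcph1-/- was 4484 ± 444, 0.708 of the WT mean of 6334 ± 930 (SD, n = 3). The log2 fold change was -0.49, with an SE of 0.17 and a 95% interval of -0.88 to -0.10 that is not adjusted for the number of genes. In the limma fit its unadjusted p ranked 325 of 10846, and the adjusted p was 0.626. The two-sided exact permutation p was 0.1, the smallest that 3 libraries against 3 allow. Scaled by total reads in place of size factors, CPM values were also apart, at 463 to 556 in Mcph1-/- and 617 to 827 in WT.

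Sult1a1 stood at 1576, 2212 and 1422 in the Mcph1-/- libraries, against 3312, 1944 and 2204 in the WT libraries. Mcph1-/- replicate 2 lay above WT replicates 2 and 3, so the groups overlapped. The mean in Mcph1-/- was 1737 ± 418, 0.698 of the WT mean of 2487 ± 726 (SD, n = 3), a ratio close to that of Pdzk1ip1 but with more spread (log2 fold change -0.51, SE 0.27, 95% interval -1.14 to 0.13; limma adjusted p = 0.666). Without WT replicate 1 the log2 fold change was -0.28. The value of Pdzk1ip1 over that of Sult1a1, which no scaling between libraries alters, was 3.03, 1.80 and 3.31 in Mcph1-/- and 2.19, 3.25 and 2.45 in WT, so their proportion overlapped between genotypes.

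Ctnnal1 stood at 222, 89.4 and 193 in the Mcph1-/- libraries, against 427, 242 and 183 in the WT libraries. The lowest value belonged to Mcph1-/- replicate 2 and the highest to WT replicate 1, while the other 4 lay between 183 and 242. The mean in Mcph1-/- was 168 ± 69.5 and that in WT 284 ± 127 (SD, n = 3), and the log2 fold change was -0.77 (SE 0.71, 95% interval -2.40 to 0.87; limma adjusted p = 0.771). It was -0.37 without Mcph1-/- replicate 2 and -0.43 without WT replicate 1.

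Socs2 and Fgd5 had means that were similar in the 2 genotypes and values that differed several-fold within them. Socs2 stood at 805, 865 and 328 in Mcph1-/-, against 178, 764 and 742 in WT. A single library of each genotype, Mcph1-/- replicate 3 and WT replicate 1, was low, and the other 4 lay between 742 and 865. The means were 666 ± 295 in Mcph1-/- and 561 ± 332 in WT (SD, n = 3), and the log2 fold change was 0.39 (SE 0.66, 95% interval -1.13 to 1.92; limma adjusted p = 0.886). Without WT replicate 1 it was -0.30, so its sign was set by that library.

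Fgd5 stood at 45.6, 103 and 205 in Mcph1-/-, against 264, 53.6 and 3.04 in WT. WT libraries held both the highest and the lowest value, 243 reads in replicate 1 and 3 reads in replicate 3, an 86.8-fold range. Fgd5 was thus read in WT replicate 3, but its 3 reads do not exceed the limit of 3 reads set here for a count of 0. The means were 118 ± 80.9 in Mcph1-/- and 107 ± 138 in WT (SD, n = 3), a ratio of 1.11. The log2 fold change of 1.37 (SE 1.73, 95% interval -2.60 to 5.33; limma adjusted p = 0.838) was larger than this ratio, since a low library weighs more on a log scale. It was -0.26 without WT replicate 3, 2.75 without WT replicate 1, and 0.85 without Mcph1-/- replicate 3. Adding 16 in place of 1 gave 0.71, edgeR gave 0.17 and DESeq2 gave 0.14. The interval for Fgd5 leaves room for differences of several-fold in either direction, and a p above the threshold does not show that the genotypes were alike.

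**Figure D2:**
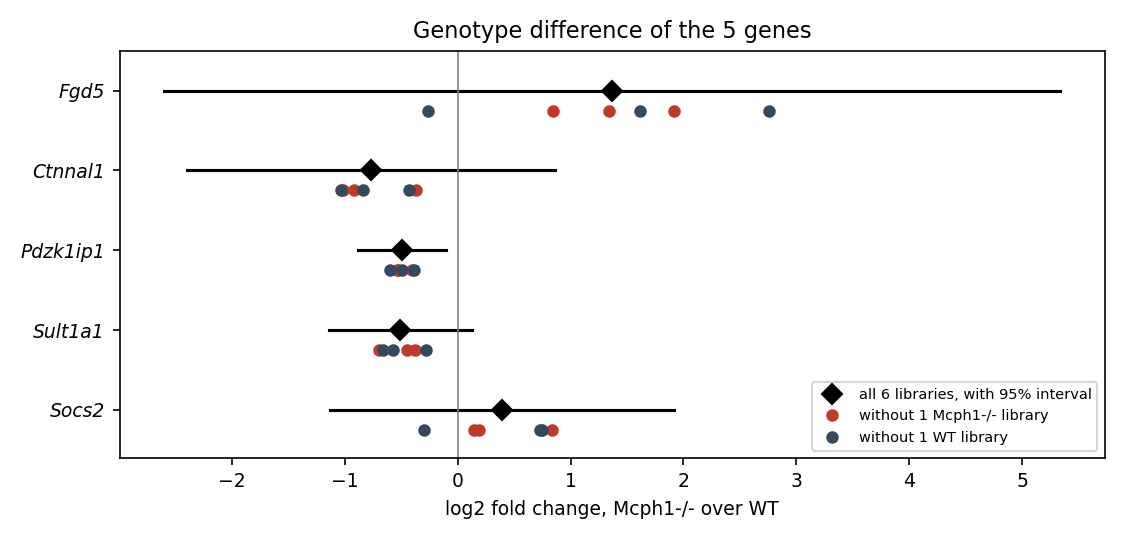
Log2 fold change of each gene, Mcph1-/- over WT (horizontal axis), in all 6 libraries (black diamond, line: 95% interval of the limma fit) and after leaving out 1 Mcph1-/- library (red) or 1 WT library (blue). The values of Pdzk1ip1, Sult1a1 and Ctnnal1 stay below 0 throughout, while those of Fgd5 and Socs2 cross 0 when 1 WT library is left out.

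The spread between libraries was far above counting error for all 5 genes. For Pdzk1ip1 the coefficient of variation was 9.91% in Mcph1-/- and 14.7% in WT, against 1.40% in Mcph1-/- and 1.28% in WT from counting alone. For Fgd5 it was 68.5% in Mcph1-/- and 129% in WT, against 8.60% in Mcph1-/- and 10.03% in WT from counting. On the log2 scale the residual SD within genotypes was 0.18 for Pdzk1ip1, 0.37 for Sult1a1, 0.66 for Ctnnal1, 1.01 for Socs2 and 2.28 for Fgd5. Among genes within 25% of the same mean value, Pdzk1ip1 stood at the 34.4th percentile of residual SD, Sult1a1 at the 57.9th, Ctnnal1 at the 18.6th, Socs2 at the 82.4th and Fgd5 at the 43.4th. The large spread of Fgd5 was thus usual for a gene of its level in these libraries, and Socs2 had the highest of the 5 percentiles.

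The 5 genes did not follow one pattern over the libraries. WT replicate 1, the library with the fewest reads (8102605) and the fewest genes with reads (10209), had the highest value of 4 of them and the lowest value of Socs2. The part of depth in this was not tested. Pdzk1ip1 and Sult1a1 were the most alike of the 10 pairs, with a root mean square difference of 0.32 after each gene's log2 values were centred on their mean over the 6 libraries. Pdzk1ip1 and Ctnnal1 differed by 0.42, while Fgd5 and Socs2 were the least alike at 2.60. The members' summed value was 7420, 7242 and 6858 in Mcph1-/- and 11448, 9331 and 8540 in WT. Pdzk1ip1 made up 54.9% to 68.7% of this sum in Mcph1-/- and 63.3% to 67.8% in WT, and so the sum mostly repeats that gene.

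**Figure D3:**
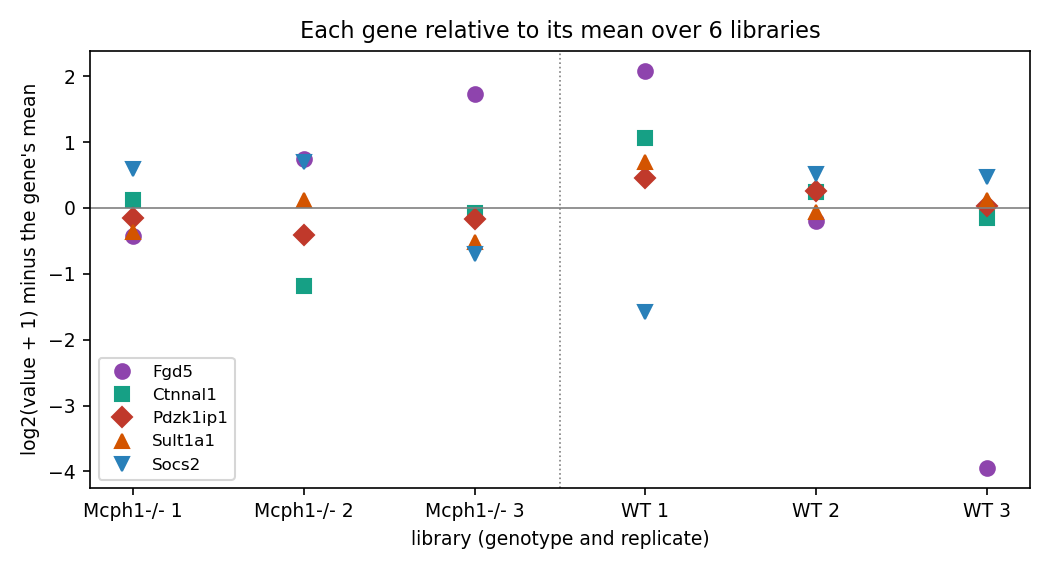
Log2(value + 1) of each gene minus its mean over the 6 libraries (vertical axis), by library (horizontal axis). In WT replicate 1 the values of Fgd5, Ctnnal1, Sult1a1 and Pdzk1ip1 lie above 0 and that of Socs2 below it, and the Fgd5 value of WT replicate 3 lies farthest from 0.

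The genes whose pattern over the 6 libraries was most like that of a member were found by the same measure. For Pdzk1ip1 they were Dguok, mitochondrial deoxyguanosine kinase, at a difference of 0.039, and Smim27, at 0.052. Dguok stood at 2889, 2293 and 2914 in Mcph1-/- and 4544, 3741 and 3269 in WT. For Sult1a1 they were the transcription factor gene Hbp1 (0.11) and the heme oxygenase gene Hmox2 (0.13), for Ctnnal1 St7 (0.22) and the ARF exchange factor gene Iqsec1 (0.22), for Socs2 Tmem9b (0.20) and the signal recognition particle gene Srp54a (0.24), and for Fgd5 Ddah2 (0.47) and the transcription factor gene Nfatc3 (0.57). The median difference over all genes ran from 0.93 for Pdzk1ip1 to 2.20 for Fgd5. These are the closest of 10846 genes over only 6 libraries.

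Other stem cell enriched effector genes were mostly lower in Mcph1-/-, by small amounts, and none passed. Of 30 such genes with values, 21 had a log2 fold change below 0, against 46.2% of all genes, and the median was -0.24, against 0.08 for all genes. When 1 library was left out, the median of the 30 was -0.38 to -0.19. Limma called 0 of the 30, and limma-voom, edgeR and DESeq2 also called 0. At an unadjusted p under 0.05 limma counted 6, all lower, and 3.55% of all genes met this in that direction. In 4 of the 30 every Mcph1-/- library was below every WT library, against 6.8% of all genes. The smallest p-values belonged to the interferon-induced transmembrane genes Ifitm1 (log2 fold change -0.53, SE 0.17) and Ifitm3 (-0.50, SE 0.17) and the glutathione transferase gene Gstm1 (-0.43, SE 0.15), each with a limma adjusted p of 0.626. Ifitm3 stood at 14107, 15464 and 12507 in Mcph1-/-, against 24457, 18655 and 16766 in WT. In this list Pdzk1ip1, Sult1a1 and Ctnnal1 lay among the lower genes and Socs2 and Fgd5 among the higher, as the plot of the list shows.

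**Figure D4:**
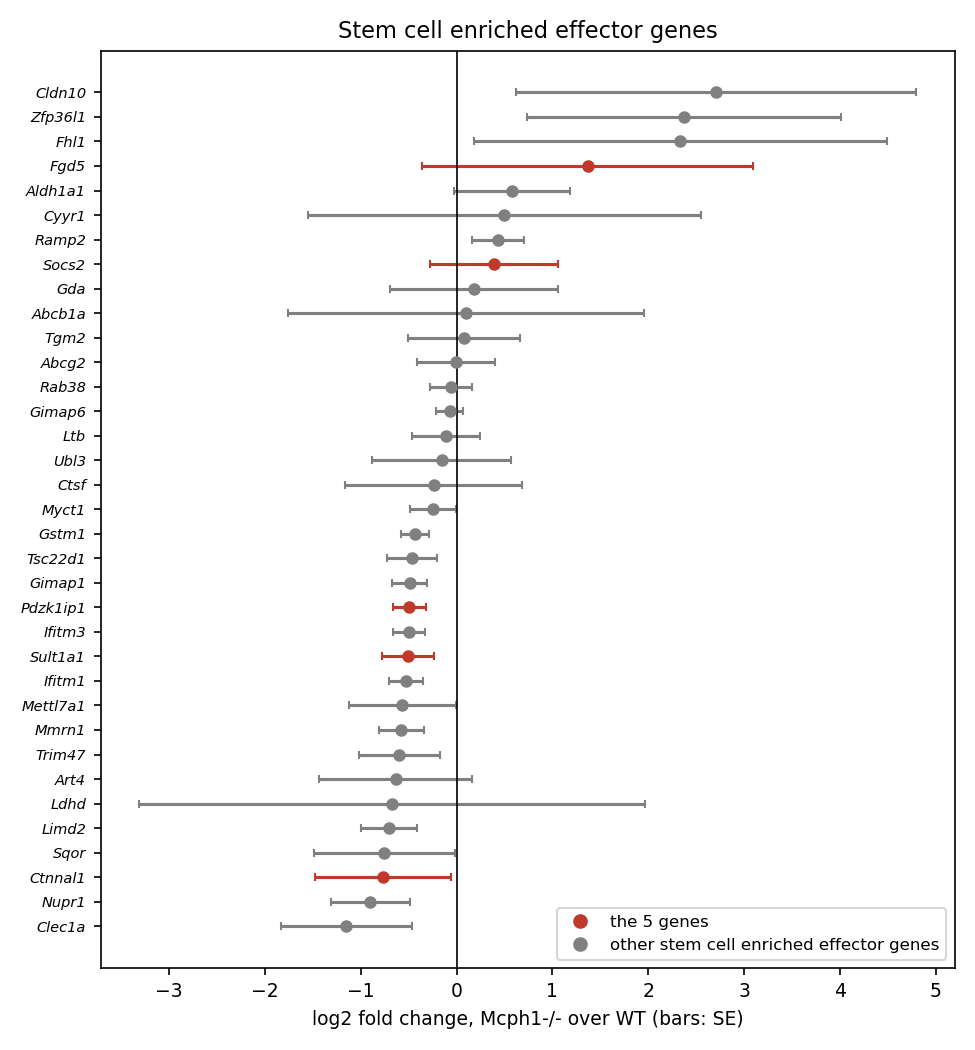
Log2 fold change, Mcph1-/- over WT (horizontal axis, bars: SE of the limma fit), of Fgd5, Ctnnal1, Pdzk1ip1, Sult1a1 and Socs2 (red) and 30 other stem cell enriched effector genes (grey), ordered by value. Of the 30, 21 lie below 0, and the widest bars belong to genes with libraries at or near 0.

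Sorting markers and transcription factors of stem cells had a median log2 fold change of -0.39 over 24 genes. Of these, 17 were below 0, against 46.2% of all genes. The median was -0.45 to -0.25 when 1 library was left out. Limma, limma-voom and edgeR called 0 of them. At an unadjusted p under 0.05 limma counted 5, all lower, and 3.55% of all genes met this in that direction. DESeq2 called 2 lower, among them the TGF-beta co-receptor gene Eng, and called 118 of all 10846 genes lower. Eng stood at 801, 792 and 401 in Mcph1-/-, against 1227, 1485 and 1582 in WT. Every Mcph1-/- library was below every WT library, which held for 6.8% of all genes. The log2 fold change of Eng was -1.17 (SE 0.34, limma adjusted p = 0.592, DESeq2 adjusted p = 0.0479), and that of the Myc family gene Mycn was -1.04 (SE 0.37, limma adjusted p = 0.626). Over the 15 alternatives, the adjusted p of Eng ran from 0.0479 to 0.858, and was under 0.05 by DESeq2 alone. The exons of Eng overlap Fpgs on the opposite strand, so its count is uncertain. In these libraries the summed cycling markers were higher and the summed neutrophil markers lower in Mcph1-/-, as given above, though not every neutrophil marker fell. The summed level of the sort markers overlapped between genotypes.

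The partners of Fgd5 centre on CDC42, the GTPase that exchange factors of its family load with GTP. Of 16 genes of the FGD family and CDC42 module, 7 had a log2 fold change above 0, against 5835 of all 10846 genes, and the median was -0.04. Limma called 0 and counted 2 under an unadjusted p of 0.05, both higher, and 451 of all 10846 genes met this in that direction. The median ran from -0.18 to 0.39 when 1 library was left out. Cdc42 stood at 5521, 5641 and 5890 in Mcph1-/-, against 3944, 3522 and 4272 in WT. Every Mcph1-/- library was above every WT library, which held for 803 of all 10846 genes. The log2 fold change was 0.54 (SE 0.15, limma adjusted p = 0.558). DESeq2 called Cdc42 (adjusted p = 0.00409), and none of the other 14 alternatives did (adjusted p up to 0.858). Cdc42ep3, an effector of CDC42, had 1.51 (SE 0.56) and the GDP dissociation inhibitor gene Arhgdib -0.23 (SE 0.11), and both have exons that overlap a gene on the other strand. Fgd5 is also an endothelial gene. Of 9 endothelial markers 4 had values, Emcn, Pecam1, Egfl7 and Sox18. Cdh5 and Kdr are not among the listed genes, which does not show that they had no reads. The 4 summed to 2100, 2782 and 821 in Mcph1-/- and 2727, 2555 and 3761 in WT. In the same order of libraries Fgd5 stood at 45.6, 103 and 205 in Mcph1-/- and 264, 53.6 and 3.04 in WT. The part of endothelial cells in the Fgd5 values was not tested.

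Of 8 genes in the list of the catenin family and the partners of Ctnnal1, limma called 0 and counted 0 under an unadjusted p of 0.05, with a median of -0.15 that ran from -0.73 to 0.30 when 1 library was left out. Limma-voom, edgeR and DESeq2 called 0 as well. Arhgef1, a guanine nucleotide exchange factor gene, was at -0.52 on the log2 scale (SE 0.47, limma adjusted p = 0.764). Ctnna1, alpha-catenin, had 0.58 (SE 0.74), with exons that overlap Lrrtm2 on the other strand.

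For Pdzk1ip1, 12 genes of the PDZK1 and TGF-beta SMAD list had values, and Pdzk1 itself has no values here. Limma called 0 of the 12 and counted 1 under an unadjusted p of 0.05, Eng, which was lower, and 3.55% of all genes met this in that direction. The median log2 fold change was -0.51. This median was -0.93 to 0.03 when 1 library was left out, -0.08 by edgeR and -0.11 by DESeq2. DESeq2 called Eng, and limma-voom and edgeR called 0. Smad4, the shared mediator of TGF-beta signals, stood at 232, 28.7 and 0.893 in Mcph1-/-, against 505, 53.6 and 183 in WT (log2 fold change -2.87, SE 1.91; limma adjusted p = 0.706). It was -4.52 without Mcph1-/- replicate 1, -1.05 without Mcph1-/- replicate 3 and -1.48 by edgeR. Smad3 had -1.38 (SE 0.67) and the receptor gene Tgfbr1 1.51 (SE 0.78), and neither passed. Tal1, the stem cell transcription factor gene that lies 16953 bases from Pdzk1ip1 and is its nearest protein-coding neighbour with values, stood at 461, 267 and 331 in Mcph1-/-, against 426, 451 and 172 in WT. Its log2 fold change was 0.10 (SE 0.56, limma adjusted p = 0.972), without the separation seen for Pdzk1ip1.

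Sulfotransferases use a sulfate donor that PAPS synthases make. Of 10 genes of sulfate supply and transfer with values, limma called 0 and counted 1, a lower gene, under an unadjusted p of 0.05. In that direction 3.55% of all genes met this. The median was -0.35 (-0.58 to -0.11 when 1 library was left out), and limma-voom, edgeR and DESeq2 called 0. No other cytosolic sulfotransferase of the list had values. The PAPS synthase gene Papss1 stood at 238, 242 and 546 in Mcph1-/-, against 668, 298 and 52.6 in WT (log2 fold change 0.52, SE 0.95; limma adjusted p = 0.893). The tyrosylprotein sulfotransferase gene Tpst2 stood at 819, 1289 and 1057 in Mcph1-/-, against 3041, 1975 and 1149 in WT (-0.88, SE 0.37; limma adjusted p = 0.645). Tpst1 had -3.51 (SE 2.10) and the phosphatase gene Bpnt2 3.75 (SE 2.33), each with libraries at 0. By edgeR and DESeq2 Tpst1 had -0.89 and -0.92, and Bpnt2 had 0.45 and 0.40, and Tpst1 had -1.45 without Mcph1-/- replicate 1. Nupr1, a stress-induced gene of the effector list that lies 42004 bases from Sult1a1, was at -0.90 on the log2 scale (SE 0.41, limma adjusted p = 0.662). Nearer to Sult1a1 lie Sgf29, which overlaps it (-0.16, SE 0.23), Slx1b at 13036 bases (-0.34, SE 1.16) and Bola2 at 18969 bases (-0.10, SE 0.21).

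Socs2 acts downstream of cytokine receptors, JAK kinases and STAT5. Among 10 genes of the SOCS family and its ubiquitin ligase, limma called 0 and counted 0 under an unadjusted p of 0.05, with a median of -0.15, and limma-voom, edgeR and DESeq2 called 0. The median was -0.62 to -0.19 when 1 library was left out, -0.33 by edgeR and -0.36 by DESeq2. The sister STAT5 target Cish stood at 158, 601 and 506 in Mcph1-/-, against 1073, 581 and 0 in WT, and Socs1 at 21.9, 289 and 43.7 in Mcph1-/-, against 256, 450 and 0 in WT. Their log2 fold changes, 2.09 (SE 2.38) and 0.45 (SE 2.41), are set by the single WT library at 0 and go against their means. Exons of Cish overlap predicted genes on the other strand. Eloc (0.37, SE 0.29) and Rnf7 (-0.31, SE 0.25) of the ligase and Socs4 (-2.63, SE 2.09) had the smallest p-values, with limma adjusted p of 0.728 to 0.741. Socs4, at 0 in Mcph1-/- replicate 3, had -0.20 without that library and -1.04 by edgeR.

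Of 22 JAK and STAT5 pathway genes, 13 had a log2 fold change below 0, against 46.2% of all genes. The median was -0.18 (-0.29 to -0.08 when 1 library was left out). Limma, limma-voom and edgeR called 0. At an unadjusted p under 0.05 limma counted 3, all lower, among them Ccnd2 and Ptpn6, and 3.55% of all genes met this in that direction. DESeq2 called 2 lower, among them Ccnd2, and called 118 of all 10846 genes lower. The cyclin D2 gene Ccnd2 stood at 5182, 5682 and 5183 in Mcph1-/-, against 9649, 10130 and 6872 in WT (log2 fold change -0.71, SE 0.18; limma adjusted p = 0.540, DESeq2 adjusted p = 0.0024). Ccnd2 too passed by DESeq2 alone of the 15 alternatives, with an adjusted p of up to 0.858 by the others. Ptpn6, the phosphatase SHP-1, had -1.17 (SE 0.37; limma adjusted p = 0.622). Both have exons that overlap an annotated gene on the other strand. Stat5a stood at 660, 819 and 335 in Mcph1-/-, against 887, 850 and 440 in WT (-0.29, SE 0.46; limma adjusted p = 0.877), and its exons overlap Stat3. Stat5b stood at 9.12, 252 and 295 in Mcph1-/-, against 46.6, 146 and 67.8 in WT (0.22, SE 1.53; limma adjusted p = 0.980). The library of WT in which Socs2 was low, replicate 1, had the highest Cish value and the highest Stat5a value of the 6. Mcph1-/- replicate 3, in which Socs2 was also low, had the lowest Stat5a value of the 6 and a Cish value of 506. The part of STAT5 in the Socs2 values was not tested.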

How the data were processed

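Paired reads of 150 bases were sequenced, per the labels' protocols. Per the submitters' processing notes, mm10 was the build and featureCounts, HISAT2, DESeq2 and Trim Galore 0.6.6 were among the tools, with no role or order given. The deposited table holds a signal that the authors made by dividing gene read counts by 1 size factor per library (0.922 to 1.22). The step was inferred from the numbers themselves, of which 100% were whole multiples of the value of 1 read (tolerance 0.001 reads), so whole reads were recovered. No listed gene lacks reads in more than 2 libraries, so a gene without values here may still have had reads in some libraries. A count of 0 was taken to allow up to 3 reads, a normalised read count of 2.46 to 3.25, for counting error alone. Reads carry no molecular identifiers and so are not independent molecules, which this limit leaves out. Genes without a symbol (444, 2.22% to 2.38% of reads) stayed in the tests. No library was a repeat of another within sampling noise (chi-square over its degrees of freedom at least 82.9). Between libraries, log2(value + 1) of the tested genes correlated at 0.655 to 0.692 within Mcph1-/- and 0.548 to 0.578 within WT. Across genotypes the correlation was 0.565 to 0.615, so WT libraries were no more like each other than like Mcph1-/- libraries.

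Log2(value + 1) was tested with limma-trend (limma 3.58.1), with genotype as the only term, for genes whose mean value reached 10, and adjusted by Benjamini-Hochberg over 10846 genes. Adding 1 draws low values together, and for Fgd5 adding 0.1 gave a log2 fold change of 1.48, against 1.37. Means of log values still weigh a low library heavily, and edgeR and DESeq2 gave 0.17 and 0.14 for Fgd5. Recovered reads were tested with edgeR 4.0.16, DESeq2 1.42.0 and limma-voom as alternatives. These tests and limma-trend were also run on simulated reads, and the outcome is not given here. The fit with a replicate block and the exact permutation test were not run on simulated reads. Positions and exonic lengths come from GENCODE vM21. The members and lists were chosen with earlier results of these data known. Named genes are the members, the 3 genes of each list with the smallest p and any past the threshold, partners fixed by name (of which Papss2 and Socs3 have no values here) and the 2 genes most like each member, leaving out predicted models and pseudogenes. Some genes that this rule names are not reported here. Ngp, S100a9, Camp, Elane, Mpo, Prtn3, Slamf1, Lyz2, Klf1, Blvrb, the globin genes, the endothelial markers, Tal1 as a neighbour and Nupr1 were named after their values were seen. So were Sgf29, Slx1b and Bola2 as neighbours.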

Additional observations from a re-analysis of the deposited data

How the results depend on the processing

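None of the 5 genes passed under any of the 15 alternatives (adjusted p of Pdzk1ip1 0.0671 by DESeq2 and up to 0.858 by the others), and Ctnnal1, Pdzk1ip1 and Sult1a1 kept their sign in all of them. Leaving out 1 library at a time gave log2 fold changes of -0.26 to 2.75 for Fgd5, -1.04 to -0.37 for Ctnnal1, -0.60 to -0.39 for Pdzk1ip1, -0.69 to -0.28 for Sult1a1 and -0.30 to 0.84 for Socs2. The number of genes called higher in Mcph1-/- was 0 by edgeR and 120 by DESeq2, and the number called lower was 118 by DESeq2 and 0 by limma-voom. Leaving out 1 library gave 0 to 2 higher and 1 to 4 lower. DESeq2 moved the median of all genes to -0.03, against 0.08. Replicate numbers are shared by the genotypes, but same-numbered libraries did not deviate together (r = -0.014, 0.018 and -0.030 across genes). With the replicate number as a block the log2 fold changes were unchanged (Pdzk1ip1 -0.49, adjusted p = 0.70), and 1 gene was called higher and 2 lower.

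Of 34 other genes run under the alternatives, which leave out the 2 genes most like each member, 26 kept their sign in all alternatives. Reversals came when 1 library was left out, with ranges of -0.50 to 1.32 for Papss1, -0.62 to 0.085 for Stat5a, -0.63 to 1.80 for Stat5b, -1.12 to 3.92 for Cish, -2.35 to 2.06 for Socs1, -0.23 to 1.07 for Ctnna1, -0.58 to 1.34 for Mcph1 and -0.35 to 0.34 for Tal1. Socs1 was also -0.52 with a pseudocount of 16, -0.97 by edgeR and -0.996 by DESeq2, and Cish -0.36 by edgeR and -0.39 by DESeq2. The causes were not tested. The spread between libraries was above counting error for all 5 genes.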
